A study of Homo sapiens with 6 samples.

Results

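The genes described here encode the proteins of the human mitochondrial ribosome, or mitoribosome. They were chosen by name: every row of the deposited table whose symbol is MRPL or MRPS followed by a number, with an optional A, B or C, together with DAP3. This gave 79 of the 61806 genes in the table, 49 named MRPL for the large subunit and 30 named MRPS or DAP3 for the small subunit. Their expression was compared between Ishikawa cells labelled EV and Ishikawa derivatives that overexpress TEFM, with 3 libraries in each group. The rule uses names only, but it was set with earlier results of these data known.

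The mitoribosome translates the mRNAs that are transcribed from mitochondrial DNA, all of which encode subunits of the respiratory chain complexes and ATP synthase. Its rRNAs come from mitochondrial DNA, whereas each of its proteins is encoded in the nucleus, translated in the cytosol and imported. Part of the protein set has counterparts in bacterial ribosomes, and the rest was added during the evolution of mitochondria. TEFM is the mitochondrial transcription elongation factor, which keeps the mitochondrial RNA polymerase moving along mitochondrial DNA, so the comparison sets nuclear genes for mitochondrial translation beside a gain of a factor for mitochondrial transcription.

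Ishikawa is an established human line derived from an endometrial adenocarcinoma. All 6 cultures were grown in the same serum-containing medium and the labels list no treatment. The labels give EV as the genotype of the control group without saying what it stands for. Not given in the sources used here are the way TEFM was introduced, the promoter that drives it, and whether the derivative was a single clone or a pool. The submitters describe 3 independent biological replicates per group, and the p-values measure the spread between these libraries only.

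Poly(A) RNA was sequenced to 14252668 to 17891047 counts per library, of which the 79 genes took 0.400% to 0.425%. TEFM itself stood at 4.13, 4.24 and 4.55 FPKM in the EV libraries and 23.6, 22.7 and 23.98 FPKM in the TEFM libraries, so every library matched its label. Of the 14254 genes with a mean of at least 1 FPKM (fragments per kilobase of exon, scaled to the depth of the library), 43.4% differed between the groups at an adjusted p under 0.05, with 21.7% higher and 21.7% lower in TEFM. The summed FPKM of 8 epithelial markers ranged from 544.9 to 594.6 in EV and from 711.1 to 745.3 in TEFM, with 6 of the 7 tested markers higher. ESR1 was listed at 0 to 0.01 FPKM. Summed levels of 5 stromal markers (1.69 to 1.94 in EV, 1.74 to 2.27 in TEFM), 3 endothelial markers (0.24 to 0.33 and 0.39 to 0.49) and 4 immune markers (0.44 to 0.53 and 0.42 to 0.78) were low in every library, and CD3E was listed at 0. In bulk RNA, fewer cells of a kind and less RNA per cell cannot be told apart. The part of the epithelial marker difference in the results below was not tested.

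Promoters of mitoribosomal protein genes are known to carry sites for NRF1, for ETS family factors such as GABPA, and for YY1. RefSeq promoters (GRCh38.p14), 250 bases before to 50 bases after a gene's start, were matched by symbol for 70 of the 79 genes, and both strands were searched for GCGCA and GCGC with any base between (NRF1), CCGGAAG (ETS) and AAGATGGCG (YY1). The 5 promoters below belong to genes that the results turn on. They are MRPS6 (chr21:34073328-34073627, plus strand), the largest rise, MRPL1 (chr4:77862580-77862879, plus strand) and MRPS10 (chr6:42217812-42218111, minus strand), the largest falls of the large and the small subunit, and MRPL36 (chr5:1799788-1800087, minus strand) and MRPS34 (chr16:1773085-1773384, minus strand), both higher in TEFM and chosen after the motif counts were seen. Each is written 5′ to 3′ on the strand of its gene, and capitals mark a match to 1 of the 3 motifs on either strand.
MRPS6: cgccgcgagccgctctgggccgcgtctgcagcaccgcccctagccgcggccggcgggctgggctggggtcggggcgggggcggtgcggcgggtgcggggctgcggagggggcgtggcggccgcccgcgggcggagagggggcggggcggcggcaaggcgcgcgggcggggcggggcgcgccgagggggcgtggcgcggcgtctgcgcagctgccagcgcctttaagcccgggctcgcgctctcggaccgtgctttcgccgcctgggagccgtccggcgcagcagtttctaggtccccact
MRPL1: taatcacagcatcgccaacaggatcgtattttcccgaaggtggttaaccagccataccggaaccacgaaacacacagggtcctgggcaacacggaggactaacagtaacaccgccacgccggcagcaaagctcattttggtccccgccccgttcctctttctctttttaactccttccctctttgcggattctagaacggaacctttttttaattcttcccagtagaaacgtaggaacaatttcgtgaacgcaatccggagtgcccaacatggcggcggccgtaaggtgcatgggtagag
MRPS10: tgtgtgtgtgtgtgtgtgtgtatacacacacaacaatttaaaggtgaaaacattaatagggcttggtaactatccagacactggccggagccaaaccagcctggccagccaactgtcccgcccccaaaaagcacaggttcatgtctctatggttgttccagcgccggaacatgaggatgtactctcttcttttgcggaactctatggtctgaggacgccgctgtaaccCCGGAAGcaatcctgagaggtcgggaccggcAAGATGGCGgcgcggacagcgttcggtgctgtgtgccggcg
MRPL36: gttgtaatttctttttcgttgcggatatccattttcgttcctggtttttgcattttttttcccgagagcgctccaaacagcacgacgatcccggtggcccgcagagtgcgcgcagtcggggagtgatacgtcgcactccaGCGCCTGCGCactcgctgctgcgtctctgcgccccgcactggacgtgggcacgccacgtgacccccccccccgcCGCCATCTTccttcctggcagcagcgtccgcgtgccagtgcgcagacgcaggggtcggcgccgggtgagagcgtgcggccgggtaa
MRPS34: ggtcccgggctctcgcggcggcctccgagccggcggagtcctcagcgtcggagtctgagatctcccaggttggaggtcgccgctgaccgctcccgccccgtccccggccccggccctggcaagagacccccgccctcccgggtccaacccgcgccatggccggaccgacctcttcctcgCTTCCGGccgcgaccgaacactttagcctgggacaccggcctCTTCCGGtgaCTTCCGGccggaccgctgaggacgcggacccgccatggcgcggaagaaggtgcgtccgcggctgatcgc

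The MRPS34 promoter holds 3 ETS matches, the MRPS10 promoter an ETS and a YY1 match close to the start, and the MRPL36 promoter an NRF1 and a YY1 match. The letters searched for are not in the MRPS6 and MRPL1 windows. Over the 70 promoters, the ETS motif was found in 29 (41.4%), against 20.8% of the 9592 matched promoters of tested genes and 10.7% of all 27305 RefSeq promoters. The YY1 motif was found in 13 (18.6%), against 4.17% and 1.85%. The NRF1 motif was found in 8 (11.4%), against 12.5% and 6.28%. Matches of different motifs overlapped in 0 of the 70 promoters. Among genes higher in TEFM, lower in TEFM and not called, the ETS motif was in 36.8%, 37.5% and 42.9% of promoters and the YY1 motif in 15.8%, 12.5% and 21.4%. The NRF1 motif was in 3 of the 19 promoters of higher genes, 0 of the 8 of lower genes and 5 of the 42 of genes not called. With 19 and 8 promoters in the called groups, these shares are a description of the windows only.

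Of the 79 genes, 78 reached the filter and were tested, and 21 were higher and 8 lower in TEFM (26.9% and 10.3%), with 49 not called. These shares stand beside 21.7% in each direction over all tested genes, and the difference between them was not tested. Rises and falls below are on the log2 scale. No tested mitoribosomal gene changed by 2-fold or more (a log2 fold change of 1), where 688 of all 14254 tested genes did. On the log2 scale 60 of the 78 lay within 0.25 of 0, beside 8154 of the 14254, and these differences were not tested. The median size among the 29 called was 0.25, against 0.34 over all called genes. The median log2 fold change was 0.09 for the 78, against -0.003 over all tested genes. The groups did not overlap for 24 genes with TEFM above EV and 13 with TEFM below EV, where 21.1% and 30.5% of all tested genes were so separated, 51.6% in all. Overlap was read on the deposited FPKM, which carry no scaling for library composition, whereas the log2 fold changes do (TMM). The TMM factors were 1.006 to 1.018 in EV and 0.982 to 0.991 in TEFM. FPKM here and below therefore place TEFM lower beside EV than the log2 fold changes do.

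**Figure D1:**
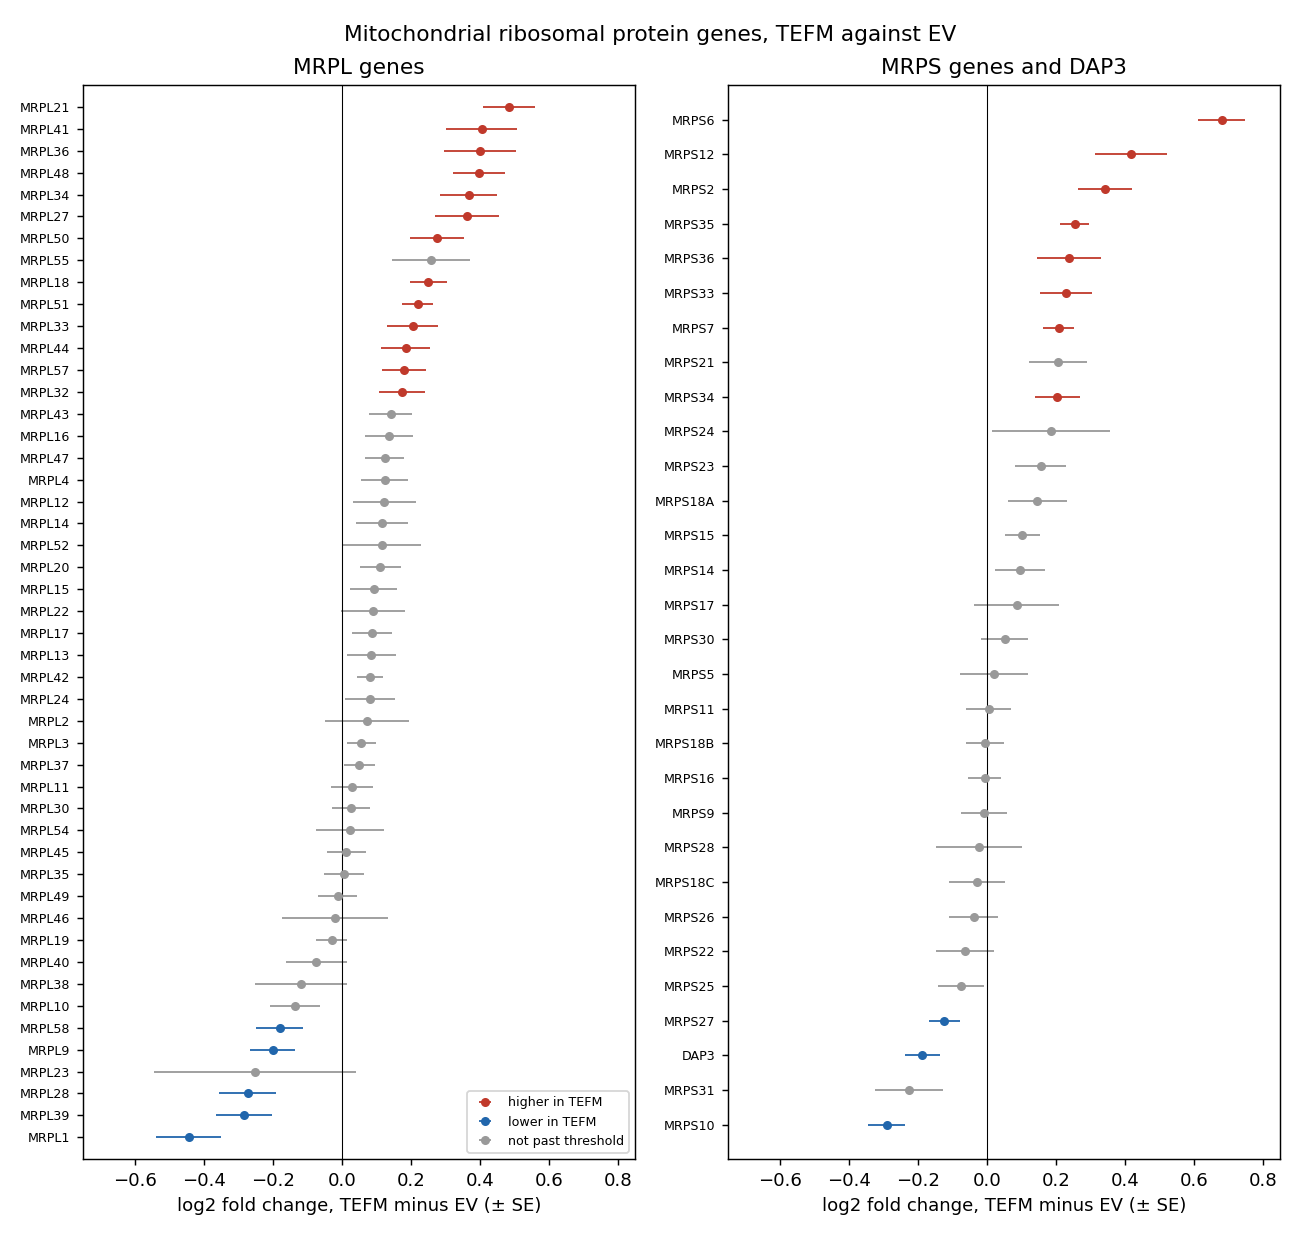
Log2 fold change of TEFM against EV with its standard error for the 48 tested MRPL genes (left) and the 30 MRPS genes and DAP3 (right), each sorted by value; red and blue mark genes past the edgeR threshold. In both panels called genes lie toward the ends, with 13 higher and 5 lower on the left and 8 higher and 3 lower on the right. Some genes not called lie among them, such as MRPL23, MRPL55 and MRPS31.

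Levels spanned a wide range within a complex whose proteins are each present in a single copy, with few exceptions. The mean FPKM over the 6 libraries ran from 1.06 (MRPL23) to 96.4 (MRPL51) for tested MRPL genes, a ratio of 91.3, and from 1.42 (MRPS5) to 88.2 (MRPS34) for MRPS genes, a ratio of 62.3. Most lay in between: 41 of 48 MRPL genes and 24 of 30 MRPS genes had a mean of 5 to 50 FPKM. The median level of the 78, 15.6 FPKM, stood at the 79.1th percentile of tested genes. FPKM divides by the deposited exon length of a gene, which counts exons of all its transcripts, so a gene with long, rarely used exons is listed low.

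Among MRPL genes, 13 were higher and 5 lower of 48 tested (27.1% and 10.4%), with a median log2 fold change of 0.09. Over all tested genes the share was 21.7% in each direction. Summed over the MRPL genes, FPKM were 1041, 1041 and 1072 in EV and 1129, 1068 and 1084 in TEFM. In these sums, which carry no composition scaling, the second TEFM library stood below the third EV library. Overlap of the sums after such scaling was not computed. The rises comprised MRPL21, MRPL41, MRPL36, MRPL48, MRPL34, MRPL27, MRPL50, MRPL18, MRPL51, MRPL33, MRPL44, MRPL57 and MRPL32. The falls were MRPL1, MRPL39, MRPL28, MRPL9 and MRPL58.

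MRPL21 encodes the counterpart of bacterial ribosomal protein bL21 (ENSG00000197345, chromosome 11, 68891276 to 68903835, minus strand) and had the largest rise of the large subunit. It stood at 10.2, 10.4 and 10.6 FPKM in the EV libraries and 15.5, 13.8 and 13.2 FPKM in the TEFM libraries. All 3 TEFM libraries lay above all EV libraries, the first of them highest (log2 fold change 0.48 ± 0.076 (SE), edgeR adjusted p = 1.31e-05). No promoter sequence was matched to it.

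MRPL48, a mitochondria-specific protein of the large subunit (ENSG00000175581, chromosome 11, 73787872 to 73865133, plus strand), was read at 6.83, 7.18 and 6.96 FPKM in the EV libraries and 9.12, 8.92 and 8.81 FPKM in the TEFM libraries. The spread within each group was small and the groups were well apart (log2 fold change 0.40 ± 0.075 (SE), edgeR adjusted p = 0.00013). MRPL41, also mitochondria-specific (ENSG00000182154, chromosome 9, 137551879 to 137552555, plus strand), was read at 28.2, 28.1 and 32.6 FPKM in the EV libraries and 42.7, 38.1 and 33.5 FPKM in the TEFM libraries. The gap between the groups was smaller than the spread within them, since the highest EV and the lowest TEFM library were close (log2 fold change 0.41 ± 0.10 (SE), edgeR adjusted p = 0.00234).

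MRPL36 encodes the counterpart of bL36, a small zinc-binding protein (ENSG00000171421, chromosome 5, 1798385 to 1801366, minus strand), and MRPL34 that of bL34 (ENSG00000130312, chromosome 19, 17292609 to 17306843, plus strand). MRPL36 was read at 11.7, 14.2 and 11.8 FPKM in the EV libraries and 18.3, 14.8 and 15.1 FPKM in the TEFM libraries. The second EV library came close to the second TEFM library, without overlap (log2 fold change 0.40 ± 0.10 (SE), edgeR adjusted p = 0.00319). MRPL34 was read at 17.6, 20.8 and 21.3 FPKM in the EV libraries and 25.7, 22.9 and 26.2 FPKM in the TEFM libraries, with the groups apart (log2 fold change 0.37 ± 0.082 (SE), edgeR adjusted p = 0.000778).

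MRPL27, the counterpart of bL27, which sits near the peptidyl transferase centre (ENSG00000108826, chromosome 17, 50367857 to 50373207, minus strand), was read at 7.83, 8.47 and 8.58 FPKM in the EV libraries and 11.3, 10.99 and 8.62 FPKM in the TEFM libraries. The third TEFM library lay just above the highest EV library (log2 fold change 0.36 ± 0.093 (SE), edgeR adjusted p = 0.00264), and its call was lost with limma on log2(FPKM + 1), with an adjusted p of 0.0671, the highest over the 15 alternatives, whose lowest was 2.94e-04. The remaining rises were smaller. They ran from 0.18 for MRPL32, which the mitochondrial AAA protease matures before it joins the ribosome, to 0.28 for MRPL50. MRPL44, a protein with a fold like that of RNase III, rose by 0.19 with overlapping groups (23.3, 23.5 and 21.5 FPKM in the EV libraries and 25.6, 26.3 and 23.4 FPKM in the TEFM libraries), and it was called in 5 of 15 alternatives, with adjusted p from 0.0268 to 0.160. Its call was lost when EV replicate 1 or 3 or the first or the second TEFM library was left out (edgeR adjusted p 0.0551 to 0.160).

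MRPL1 had the largest fall of all (ENSG00000169288, chromosome 4, 77862830 to 77952785, plus strand). Its bacterial counterpart uL1 forms the stalk through which tRNAs leave the ribosome. It was read at 13.4, 14.7 and 13.7 FPKM in the EV libraries and 10.5, 9.62 and 9.7 FPKM in the TEFM libraries. Each TEFM library was lower than each EV library, and the fitted TEFM level was 0.735 times that of EV (log2 fold change -0.44 ± 0.094 (SE), edgeR adjusted p = 0.000435).

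MRPL39, a mitochondria-specific protein (ENSG00000154719, chromosome 21, 25585656 to 25607517, minus strand), was read at 30.4, 27.7 and 27.7 FPKM in the EV libraries and 24.5, 21.2 and 23.1 FPKM in the TEFM libraries, without overlap (log2 fold change -0.28 ± 0.081 (SE), edgeR adjusted p = 0.00623). MRPL28, the counterpart of bL28 (ENSG00000086504, chromosome 16, 366969 to 371289, minus strand), was read at 10.4, 11.6 and 12.1 FPKM in the EV libraries and 10.1, 8.58 and 8.8 FPKM in the TEFM libraries. The highest TEFM library lay just under the lowest EV library (log2 fold change -0.27 ± 0.083 (SE), edgeR adjusted p = 0.00971). Each was called in 14 of 15 alternatives. Without EV replicate 1 the log2 fold change of MRPL39 was -0.23 and its edgeR adjusted p 0.0542 (0.00235 to 0.0542 over the alternatives). Without TEFM replicate 2 that of MRPL28 was -0.23, with an edgeR adjusted p of 0.0599 (0.00346 to 0.0599).

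MRPL9, the counterpart of bL9 (ENSG00000143436, chromosome 1, 151759647 to 151763496, minus strand), was read at 26.3, 27.04 and 27.96 FPKM in the EV libraries and 23.1, 22.4 and 23.3 FPKM in the TEFM libraries, with the groups apart (log2 fold change -0.20 ± 0.065 (SE), edgeR adjusted p = 0.0156); 38.5% of its exon bases are shared with exons of other genes, 18.4% with those of OAZ3. Without TEFM replicate 2 its edgeR adjusted p was 0.0530, in a range from 0.00315 over the alternatives. MRPL58, also known as ICT1, is a peptidyl-tRNA hydrolase that rescues stalled ribosomes and has become part of the large subunit (ENSG00000167862, chromosome 17, 75012670 to 75021261, plus strand). It was read at 39.8, 39.4 and 42.3 FPKM in the EV libraries and 36.5, 32.8 and 34.95 FPKM in the TEFM libraries. The groups did not overlap, yet its adjusted p was near the threshold (log2 fold change -0.18 ± 0.069 (SE), edgeR adjusted p = 0.0376) and it was called in 8 of 15 alternatives, with adjusted p from 0.0131 to 0.152. Its call was lost when EV replicate 1 or 3 or the second or the third TEFM library was left out.

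The proteins of the stalk that recruits translation factors, known from bacteria as uL10, bL12 and uL11, were not called by edgeR. MRPL10 was read at 12.2, 13.5 and 13.4 FPKM in the EV libraries and 11.5, 11.7 and 11.4 FPKM in the TEFM libraries, the groups just apart (log2 fold change -0.14 ± 0.073 (SE), edgeR adjusted p = 0.145). Both limma fits called MRPL10 lower (log2 difference -0.16 and adjusted p 0.0341 with a pseudocount of 1, in a range of adjusted p from 0.0341 to 0.314 over the 15 alternatives). MRPL12 was read at 21.4, 22.4 and 22.97 FPKM in the EV libraries and 26.4, 21.9 and 22.2 FPKM in the TEFM libraries, overlapping (log2 fold change 0.12 ± 0.091 (SE), edgeR adjusted p = 0.3), and shares 68.2% of its exon bases with another annotated gene. MRPL11 was read at 22.6, 21.7 and 22.2 FPKM in the EV libraries and 23.5, 20.99 and 21.6 FPKM in the TEFM libraries, also overlapping (log2 fold change 0.03 ± 0.061 (SE), edgeR adjusted p = 0.732). MRPL45, which tethers the ribosome to the inner membrane at the exit tunnel, was likewise not called (a mean FPKM of 36.4 ± 0.709 in EV against 35.8 ± 1.27 in TEFM, log2 fold change 0.01 ± 0.056 (SE), edgeR adjusted p = 0.879).

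The 5 MRPL genes with the highest levels were MRPL51, MRPL3, MRPL37, MRPL18 and MRPL47. MRPL51, a mitochondria-specific protein (ENSG00000111639, chromosome 12, 6491886 to 6493841, minus strand), was read at 89.04, 89.4 and 92.7 FPKM in the EV libraries and 108, 100 and 98.2 FPKM in the TEFM libraries, with every TEFM library above every EV library (log2 fold change 0.22 ± 0.045 (SE), edgeR adjusted p = 0.000329), and shares 31.3% of its exon bases with NCAPD2 on the opposite strand. MRPL18, the counterpart of uL18 (ENSG00000112110, chromosome 6, 159789812 to 159798436, plus strand), was read at 51.2, 50.1 and 53.2 FPKM in the EV libraries and 62.6, 57.3 and 58.98 FPKM in the TEFM libraries, also without overlap (log2 fold change 0.25 ± 0.053 (SE), edgeR adjusted p = 0.000477). The other three abundant genes were not called. MRPL3 had a mean FPKM of 65.5 ± 0.625 in EV against 66.3 ± 2.67 in TEFM (log2 fold change 0.06 ± 0.042 (SE), edgeR adjusted p = 0.303), MRPL37 a mean FPKM of 64.1 ± 0.165 in EV against 64.7 ± 3.99 in TEFM (log2 fold change 0.05 ± 0.046 (SE), edgeR adjusted p = 0.398) and MRPL47 a mean FPKM of 42.2 ± 0.15 in EV against 44.7 ± 1.73 in TEFM (log2 fold change 0.12 ± 0.057 (SE), edgeR adjusted p = 0.0818). MRPL53 was the member under the filter, with 9, 3 and 10 counts in EV and 2, 4 and 10 in TEFM, and was not tested.

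**Figure D2:**
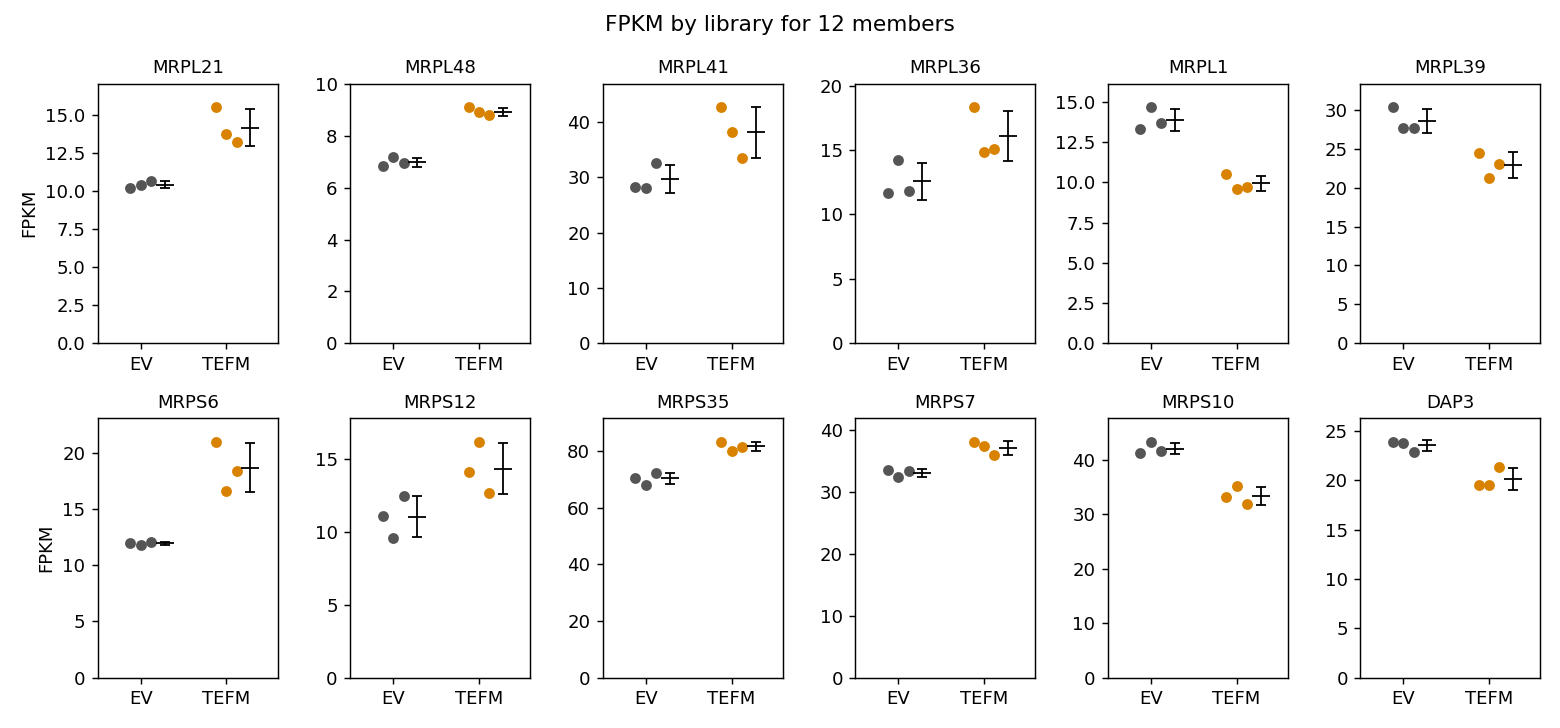
FPKM in each library (dots) with the mean and SD of 3 libraries per group (bars) for 12 genes, MRPL genes in the upper row and MRPS genes and DAP3 in the lower; each axis starts at 0. The 12 are a selection of called genes without overlap between EV and TEFM dots, a trait of 51.6% of all tested genes. MRPS34 and MRPL44, called with overlapping groups, are not shown. MRPL1, MRPL39, MRPS10 and DAP3 are the 4 that are lower in TEFM.

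Among the 30 genes of the small subunit by name, 8 were higher and 3 lower (26.7% and 10.0%, beside 21.7% each over all tested genes). These 30 genes had a median log2 fold change of 0.07. Their summed FPKM were 600.4, 592.5 and 622.8 in EV and 641.3, 623.5 and 635.0 in TEFM. Without composition scaling, the third EV and the second TEFM library were under 1 FPKM apart. MRPS6, MRPS12, MRPS2, MRPS35, MRPS36, MRPS33, MRPS7 and MRPS34 rose. MRPS10, DAP3 and MRPS27 fell. MRPS31 (log2 fold change -0.23, edgeR adjusted p = 0.0662) and MRPS21 (0.21, edgeR adjusted p = 0.0522) were not called. Of 15 alternatives, 4 called MRPS31 lower and 2 called MRPS21 higher.

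MRPS6, the counterpart of bS6, a protein of the platform of the small subunit (ENSG00000243927, chromosome 21, 34073224 to 34143034, plus strand), had the largest change of all 78. It was read at 12.03, 11.8 and 12.1 FPKM in the EV libraries and 20.98, 16.6 and 18.4 FPKM in the TEFM libraries. The EV libraries were almost equal, and the lowest TEFM library was well above them. The fitted TEFM level was 1.602 times that of EV (log2 fold change 0.68 ± 0.068 (SE), edgeR adjusted p = 1.27e-08).

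The MRPS6 locus also holds SLC5A3, an inositol transporter gene on the same strand, whose listed start of 34073578 is the base that RefSeq gives as the start of MRPS6. The annotated exons of MRPS6 share 273 of 4299 bases (6.35%) with those of SLC5A3. SLC5A3 was read at 17.1, 17.9 and 17.9 FPKM in the EV libraries and 28.4, 24.6 and 25.6 FPKM in the TEFM libraries (log2 fold change 0.61 ± 0.045 (SE), edgeR adjusted p = 5.48e-11), so both rows moved by a similar amount. The treatment of reads from shared exons during counting was not stated in the labels, and the part of SLC5A3 reads in the MRPS6 row was not tested.

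MRPS12 encodes the counterpart of uS12 at the decoding centre (ENSG00000128626, chromosome 19, 38930944 to 38933168, plus strand). It was read at 11.1, 9.59 and 12.4 FPKM in the EV libraries and 14.1, 16.2 and 12.7 FPKM in the TEFM libraries. The libraries scattered within both groups and the third EV library came close to the third TEFM library (log2 fold change 0.42 ± 0.10 (SE), edgeR adjusted p = 0.00211). MRPS2, the counterpart of uS2 (ENSG00000122140, chromosome 9, 135499984 to 135504673, plus strand), was read at 18.6, 16.2 and 18.3 FPKM in the EV libraries and 24.9, 19.7 and 21.1 FPKM in the TEFM libraries, with the first TEFM library highest (log2 fold change 0.34 ± 0.078 (SE), edgeR adjusted p = 0.000973), and its call was lost with limma on log2(FPKM + 1), at an adjusted p of 0.0505 in a range from 1.67e-05 over the alternatives.

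MRPS35, mitochondria-specific and among the most abundant (ENSG00000061794, chromosome 12, 27710822 to 27756295, plus strand), was read at 70.6, 68.1 and 72.2 FPKM in the EV libraries and 83.2, 80.1 and 81.4 FPKM in the TEFM libraries. The groups were apart by more than their spread (log2 fold change 0.25 ± 0.042 (SE), edgeR adjusted p = 2.95e-05). MRPS7, the counterpart of uS7 in the head of the subunit, was read at 33.5, 32.4 and 33.4 FPKM in the EV libraries and 38.1, 37.5 and 35.96 FPKM in the TEFM libraries, also without overlap (log2 fold change 0.21 ± 0.045 (SE), edgeR adjusted p = 0.000539). MRPS33, a mitochondria-specific protein (ENSG00000090263, chromosome 7, 141002610 to 141015228, minus strand), was read at 7.39, 7.29 and 6.32 FPKM in the EV libraries and 8.34, 7.59 and 8.05 FPKM in the TEFM libraries, with the groups close to each other (log2 fold change 0.23 ± 0.075 (SE), edgeR adjusted p = 0.0158). The MRPS33 call was lost when EV replicate 3 or the first or the third TEFM library was left out, with edgeR adjusted p of 0.0525 to 0.0913 (0.0101 to 0.0913 over the alternatives).

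MRPS34, the most abundant transcript of the small subunit genes and known as a factor for the stability of that subunit (ENSG00000074071, chromosome 16, 1771890 to 1773150, minus strand), was read at 80.97, 80.7 and 87.7 FPKM in the EV libraries and 91.6, 82.7 and 106 FPKM in the TEFM libraries. The second TEFM library lay inside the EV range and the third was far above it (log2 fold change 0.20 ± 0.065 (SE), edgeR adjusted p = 0.014). Without the third TEFM library its log2 fold change was 0.10 and its edgeR adjusted p 0.199, in a range of 0.00207 to 0.200 over the alternatives. The call was also lost without EV replicate 1 or 2 (edgeR adjusted p 0.0622 and 0.0532).

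MRPS10, the counterpart of uS10 (ENSG00000048544, chromosome 6, 42206807 to 42217861, minus strand), had the largest fall of the small subunit. It was read at 41.3, 43.2 and 41.5 FPKM in the EV libraries and 33.1, 35.1 and 31.9 FPKM in the TEFM libraries, with every TEFM library lower (log2 fold change -0.29 ± 0.053 (SE), edgeR adjusted p = 8.38e-05). DAP3, a GTP-binding mitochondria-specific protein first described as a mediator of cell death (ENSG00000132676, chromosome 1, 155687960 to 155739010, plus strand), was read at 23.9, 23.8 and 22.9 FPKM in the EV libraries and 19.5, 19.5 and 21.4 FPKM in the TEFM libraries. The groups were apart, with the third TEFM library nearest to EV (log2 fold change -0.19 ± 0.051 (SE), edgeR adjusted p = 0.00405).

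MRPS27 encodes a protein of the pentatricopeptide repeat family (ENSG00000113048, chromosome 5, 72214953 to 72321717, minus strand). It was read at 7.63, 7.14 and 7.7 FPKM in the EV libraries and 6.51, 6.79 and 6.78 FPKM in the TEFM libraries, and its fall was the smallest among the 8 called falls (log2 fold change -0.12 ± 0.045 (SE), edgeR adjusted p = 0.0287). That call was lost when EV replicate 1 or 3 or the first TEFM library was left out, with edgeR adjusted p of 0.0661 to 0.133 (0.00441 to 0.133 over the alternatives). Among the other abundant genes, MRPS26 had a mean FPKM of 46.6 ± 3.78 in EV against 44.2 ± 3.04 in TEFM (log2 fold change -0.04 ± 0.071 (SE), edgeR adjusted p = 0.706). MRPS22, which is mitochondria-specific, was read at 2.25, 2.0 and 2.17 FPKM in the EV libraries and 1.83, 2.25 and 1.91 FPKM in the TEFM libraries, overlapping between groups (log2 fold change -0.06 ± 0.084 (SE), edgeR adjusted p = 0.582).

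Human cells have 3 paralogues of bacterial S18. MRPS18C takes the place of the bacterial protein, MRPS18B sits elsewhere in the small subunit, and MRPS18A is part of the large subunit despite its name. None of the 3 was called by edgeR, by DESeq2 or by limma. MRPS18A had a mean FPKM of 18.5 ± 0.938 in EV against 19.9 ± 1.51 in TEFM (log2 fold change 0.15 ± 0.085 (SE), edgeR adjusted p = 0.176), MRPS18B a mean FPKM of 41.4 ± 1.87 in EV against 40.1 ± 1.69 in TEFM (log2 fold change -0.0061 ± 0.055 (SE), edgeR adjusted p = 0.942) and MRPS18C a mean FPKM of 5.35 ± 0.141 in EV against 5.1 ± 0.0666 in TEFM (log2 fold change -0.03 ± 0.081 (SE), edgeR adjusted p = 0.815). MRPS18A shares 47.04% of its exon bases with RSPH9, and MRPS18C 40.2% with ABRAXAS1.

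A pair of further genes bear small-subunit names although their products lie elsewhere. MRPS30 is a protein of the large subunit and was not called (a mean FPKM of 7.96 ± 0.679 in EV against 8.02 ± 0.0586 in TEFM, log2 fold change 0.05 ± 0.068 (SE), edgeR adjusted p = 0.579). MRPS36 is now known as a subunit of the oxoglutarate dehydrogenase complex (ENSG00000134056, chromosome 5, 69217760 to 69230158, plus strand) and was read at 12.2, 11.9 and 14.03 FPKM in the EV libraries and 14.3, 14.5 and 14.9 FPKM in the TEFM libraries. Its groups were separated by a narrow gap (log2 fold change 0.24 ± 0.092 (SE), edgeR adjusted p = 0.0397), and it was called in 4 of 15 alternatives, with adjusted p from 0.0120 to 0.143. Its call was lost without EV replicate 1 or 2 or any of the TEFM replicates.

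Grouped by origin, genes with a bacterial counterpart and mitochondria-specific genes both had calls in each direction. Of 46 genes with a bacterial counterpart, 11 were higher and 4 lower (median log2 fold change 0.09). Of 29 tested mitochondria-specific genes, 9 were higher and 4 lower (median 0.05). The share called was 32.6% in the former and 44.8% in the latter, beside 43.4% over all tested genes, and the difference was not tested.

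Rises were counted in 14 of the 39 mitoribosomal genes with the shorter coding sequences and in 7 of the 39 with the longer ones. This split was looked for after the values were seen, and the difference was not tested. The coding length, taken as the longest annotated coding sequence in GENCODE v29, ran from 207 bases (MRPL33) to 1449 bases (MRPL37), and its median was 474 bases in higher genes, 888 in lower genes and 615 in genes not called. At or under the median of 609 bases, 1 gene was lower, MRPS10, and above it 7 were lower. Across genes, which are not independent replicates, Spearman's rho between coding length and log2 fold change was -0.45 over the 78, -0.48 over MRPL and -0.39 over MRPS genes, against -0.06 over 11242 tested coding genes.

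Other coding genes of these lengths were counted beside them. Of 1387 other tested genes with a coding length up to 609 bases, 411 (29.6%) were higher and 225 (16.2%) lower, and of 4333 longer ones up to the longest mitoribosomal gene, 24.8% were higher and 23.3% lower. The mitoribosomal shares were 35.9% and 2.56% for the shorter genes, and 17.9% in each direction for the longer. The GC content of the transcripts, which ordered log2 fold changes over all coding genes with a rho of 0.29, gave 0.13 over the 78. The points share library, depth and the counting of short transcripts, and their part in the relation was not tested.

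**Figure D3:**
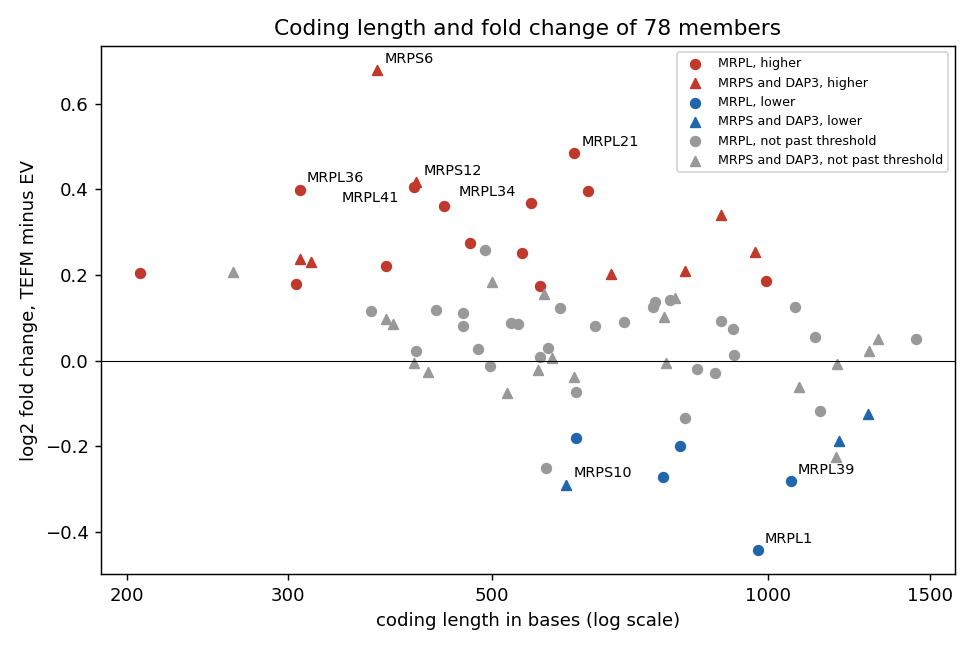
Log2 fold change of TEFM against EV (vertical axis) by coding length in bases (horizontal axis, log scale) for the 78 tested genes, with circles for MRPL and triangles for MRPS and DAP3; colours mark calls. The 8 called falls lie between 603 and 1284 bases, and the 21 called rises between 207 and 996 bases.

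Position on the chromosomes was described next. For each gene, the median log2 fold change of the other tested genes that start within 5 Mb was taken. It lay between -0.41 and 0.43, and 10 of the 78 genes lay where it was at least 0.15 from 0. Of these 10, 4 were higher and 1 lower, beside 21.7% in each direction over all tested genes. Over the 78, the correlation between a gene and its neighbours was weak (Pearson's r 0.21, Spearman's rho 0.13), as a description.

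The clearest cases were on chromosome 11, where 7 of the genes lie. MRPL48 rose by 0.40 among 103 neighbours with a median of 0.43, and MRPL21 by 0.48 among 174 neighbours with a median of 0.28. MRPL11 (0.03) and MRPL49 (-0.01) stayed near 0 in neighbourhoods at 0.21 and 0.20. On chromosome 21, MRPL39 fell by 0.28 among 13 neighbours with a median of -0.21, whereas MRPS6 lay among 42 with a median of 0.02. MRPS36 and MRPL57 rose (0.24 and 0.18) among neighbours at -0.18 and -0.21, and MRPS28 had a log2 fold change of -0.02 where the neighbours stood at -0.41. Without the 10 genes, 10 MRPL genes were higher and 4 lower, and 7 MRPS genes higher and 3 lower. The part of chromosomal position in these changes was not tested.

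**Figure D4:**
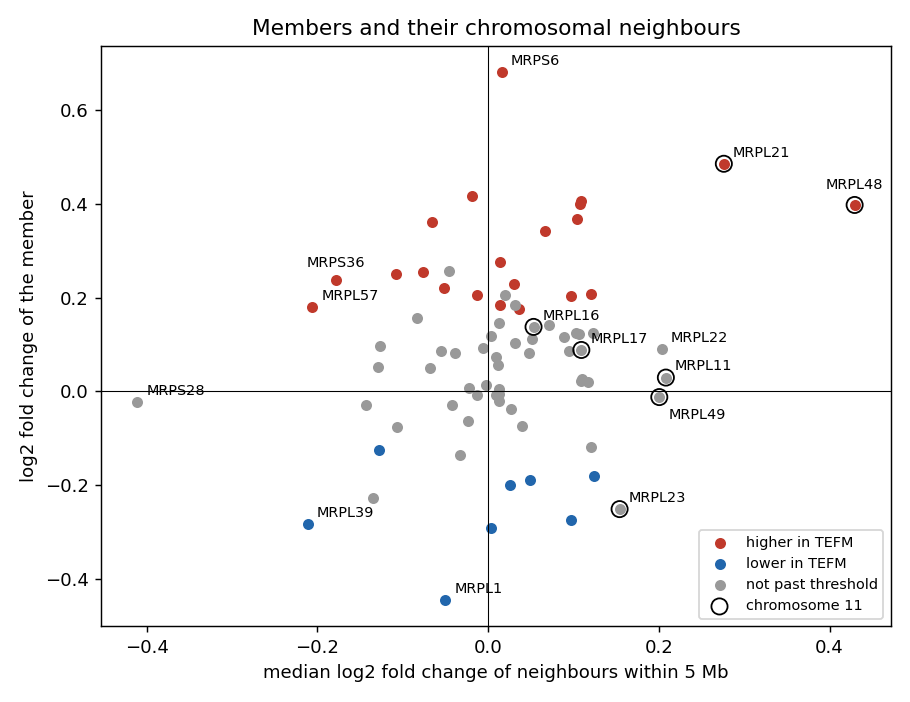
Log2 fold change of each of the 78 genes (vertical axis) against the median log2 fold change of the tested genes starting within 5 Mb of it (horizontal axis); rings mark the 7 genes on chromosome 11. MRPL48 and MRPL21 lie at the upper right with their neighbours, and MRPS6, MRPL57 and MRPS36 lie high over neighbourhoods at 0.02, -0.21 and -0.18.

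Several mitoribosomal genes start back to back with another gene and share the stretch between. With starts within 1 kb on opposite strands, 16 such pairs of tested genes were found. Both partners were called in 5 pairs, the mitoribosomal gene alone in 2, the partner alone in 3, and neither in 6. Over all tested genes 43.4% were called, and the difference from that share was not tested. In 3 of the 5 pairs both rose: MRPL21 with IGHMBP2 (log2 fold change 0.52), a helicase gene 28 bases away, MRPL18 with TCP1 (0.36), a chaperonin subunit gene 109 bases away, and MRPL36 with NDUFS6 (0.22), a gene of respiratory complex I 41 bases away. In the other 2 pairs the partners moved apart: MRPL27 rose by 0.36 while EME1 fell by 0.29, and MRPL57 rose by 0.18 while SKA3 fell by 0.19. Among the partners called alone, FAU rose by 0.38 beside MRPL49 (-0.01) and MTBP fell by 0.65 beside MRPL13 (0.09, not called). Across the 16 pairs Pearson's r was 0.27 and Spearman's rho 0.09.

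The labels do not state the strandedness of the libraries, and reads from exons that overlap another gene are therefore uncertain. At least 20% of exon bases were shared with another gene for 14 of the 79 genes, 13 of them tested. Without these, 11 MRPL genes were higher and 4 lower and 8 MRPS genes higher and 3 lower. The table also lists 79 rows named as pseudogenes of mitoribosomal genes. Of these, 47 had no count in any library, and 4 had at least 5% of the counts of their parent gene. The counting of reads that match both a gene and a pseudogene was not stated in the labels.

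Of the mitoribosomal proteins with other symbols, 2 of 4 were higher and the other 2 not called, where 21.7% of all tested genes were higher. PTCD3, a pentatricopeptide repeat protein of the small subunit, had a mean FPKM of 10.5 ± 0.495 in EV against 11.9 ± 0.0851 in TEFM (log2 fold change 0.21 ± 0.048 (SE), edgeR adjusted p = 0.000689). AURKAIP1 had a mean FPKM of 28.5 ± 4.87 in EV against 34.7 ± 4.58 in TEFM, with overlapping groups (log2 fold change 0.33 ± 0.095 (SE), edgeR adjusted p = 0.00728). CHCHD1 (0.22, edgeR adjusted p = 0.0506) and GADD45GIP1 (0.15, edgeR adjusted p = 0.106) did not pass the test, and both had all TEFM libraries above EV.

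Assembly factors process the rRNAs of the mitoribosome and help its proteins to join. Of 25 tested, 10 were lower (40%) and 4 higher (16%), beside 21.7% in each direction over all tested genes, with a median log2 fold change of -0.09 against -0.003. The difference from all genes was not tested. MTERF4 and NSUN4, which form a complex that acts on the large-subunit rRNA, were both lower: MTERF4 was read at 3.74, 3.79 and 3.33 FPKM in the EV libraries and 2.57, 2.38 and 2.49 FPKM in the TEFM libraries (log2 fold change -0.51 ± 0.08 (SE), edgeR adjusted p = 1.41e-05) and NSUN4 fell by 0.37 (edgeR adjusted p = 0.000107). GTPBP10, a GTPase for maturation of the large subunit, was read at 6.28, 6.34 and 5.04 FPKM in the EV libraries and 4.09, 4.24 and 4.44 FPKM in the TEFM libraries, without overlap (log2 fold change -0.43 ± 0.076 (SE), edgeR adjusted p = 6.13e-05).

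The rRNA methyltransferases METTL15 and TFB1M, which act on the small-subunit rRNA, fell by 0.41 and 0.40, and MRM1, which acts on the large-subunit rRNA, fell by 0.62. MRM1 was low throughout, at 2.61, 3.1 and 2.81 FPKM in the EV libraries and 2.16, 1.98 and 1.18 FPKM in the TEFM libraries. The third TEFM library was lowest, with 31 counts (log2 fold change -0.62 ± 0.21 (SE), edgeR adjusted p = 0.020). MTG1, MTERF3, AFG3L2 and ERAL1 were the other falls, between 0.16 and 0.32. The rises were RPUSD4, NOA1, TRUB2 and DHX30. RPUSD4, a pseudouridine synthase for the large-subunit rRNA on chromosome 11, was read at 7.22, 7.42 and 7.63 FPKM in the EV libraries and 12.6, 11.6 and 10.9 FPKM in the TEFM libraries and had the largest change of these factors (log2 fold change 0.70 ± 0.072 (SE), edgeR adjusted p = 2.26e-08).

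Of 18 translation factors, 3 were higher (16.7%) and 4 lower (22.2%), shares near the 21.7% in each direction over all tested genes, and their median log2 fold change was -0.02. SLIRP (log2 fold change 0.27) and LRPPRC (0.14), which together stabilise mitochondrial mRNAs, and OXA1L (0.17), which inserts newly made proteins into the inner membrane, were higher. TACO1, an activator of COX1 translation, was read at 4.43, 4.07 and 4.35 FPKM in the EV libraries and 3.0, 2.74 and 2.33 FPKM in the TEFM libraries, lower in every TEFM library (log2 fold change -0.63 ± 0.14 (SE), edgeR adjusted p = 0.00107). GFM1, an elongation factor, was read at 8.19, 8.16 and 8.62 FPKM in the EV libraries and 6.8, 7.24 and 6.58 FPKM in the TEFM libraries, also without overlap (log2 fold change -0.24 ± 0.051 (SE), edgeR adjusted p = 0.000591). METAP1D (log2 fold change -0.30), a methionine aminopeptidase, and GUF1 (-0.12), related to bacterial LepA, were also lower. TUFM, the elongation factor Tu of mitochondria and the most abundant of the 18, was not called, with an adjusted p just over the threshold. Its mean FPKM was 106 ± 5.08 in EV against 110 ± 5.31 in TEFM, with overlapping groups (log2 fold change 0.10 ± 0.043 (SE), edgeR adjusted p = 0.0567).

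**Figure D5:**
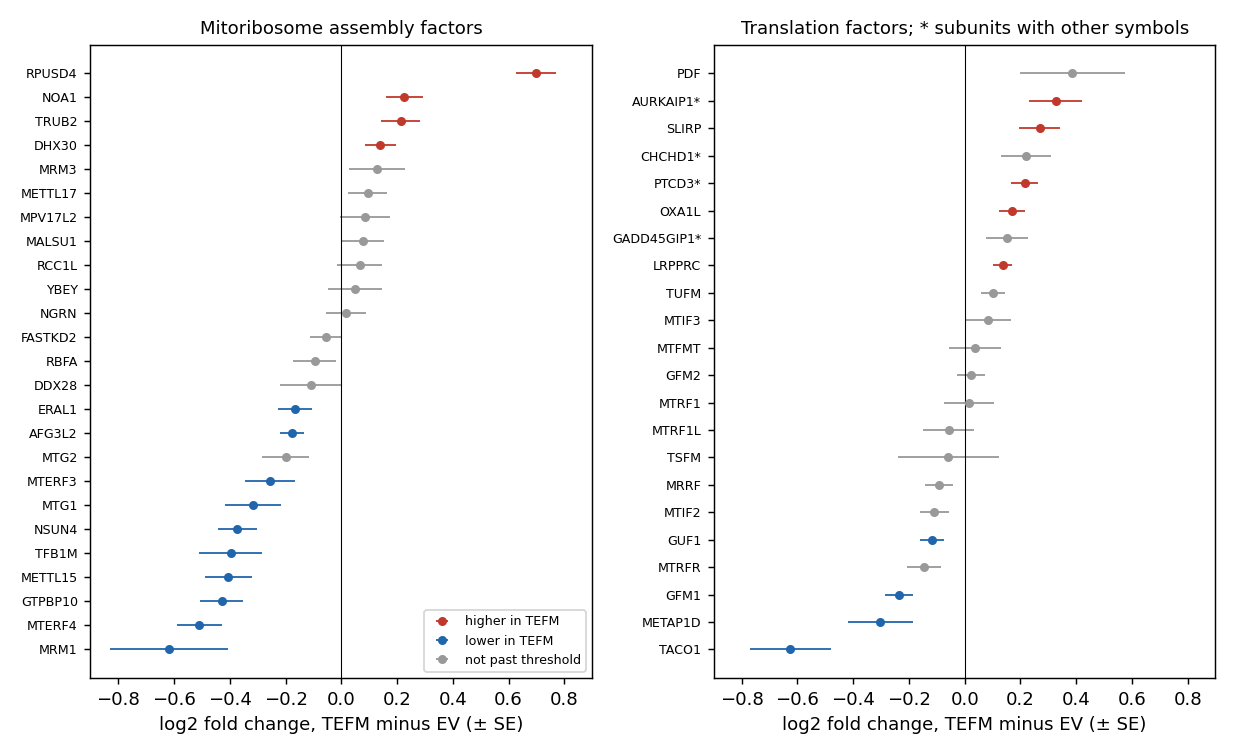
Log2 fold change of TEFM against EV with its standard error for 25 assembly factors (left) and for 18 translation factors with 4 mitoribosomal proteins of other symbols, marked by a star (right); red and blue mark genes past the edgeR threshold. Assembly factors show 10 falls and 4 rises of 25, beside 21.7% of all tested genes in each direction, with RPUSD4 highest and MRM1 lowest.

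The mitoribosomal rRNAs themselves are encoded by mitochondrial DNA. The small-subunit rRNA gene MT-RNR1 was read at 246, 239 and 195 FPKM in the EV libraries and 248, 254 and 285 FPKM in the TEFM libraries, with the first TEFM library close to the highest EV library (log2 fold change 0.25 ± 0.063 (SE), edgeR adjusted p = 0.00264). The large-subunit rRNA gene MT-RNR2 was read at 3122, 3130 and 2506 FPKM in the EV libraries and 2459, 2759 and 2887 FPKM in the TEFM libraries, with overlapping groups (log2 fold change -0.07 ± 0.062 (SE), edgeR adjusted p = 0.37). Selection on poly(A) captures these rRNAs only in part, so their FPKM are not levels of assembled ribosomes, and the ratio of rRNA to protein transcripts was not computed.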

How the data were processed

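RNA-seq of poly(A) RNA from 6 Ishikawa libraries was used, 3 labelled EV and 3 TEFM. Per the file headers, the deposited table gives raw read counts and FPKM per gene, and these deposited FPKM could be recomputed to within 0.005 from the counts, the listed exon lengths and the column totals. Trimming used cutadapt 1.9.1 and the build was hg19, per the submitters' processing notes. The table's coordinates instead match GRCh38, with 99.9% of 58254 common gene IDs overlapping their GENCODE v29 gene, and are given as deposited. Not given in the sources used here are the aligner and the counting tool.

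Genes with a mean of at least 1 FPKM were tested on the deposited counts with the two-sided quasi-likelihood F test of edgeR 4.0.16 (R 4.3.3) with TMM scaling, and p-values were adjusted by Benjamini-Hochberg over all 14254 genes with a threshold of 0.05. Standard errors were derived from the F statistic. The common biological coefficient of variation was 4.81%. The test was tried on simulated data first. DESeq2 1.42.0, limma 3.58.1 on log2(FPKM + 1) and log2(FPKM + 0.1), other scalings and filters, blocking by replicate number, and fits without 1 library were alternatives. Replicates differed beyond sampling noise (chi-square per degree of freedom 2.15 to 4.70 within and 25.4 to 33.3 between groups).

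Full statistics were given for up to 6 rises and 6 falls per subunit, the 5 highest levels per subunit, genes chosen for their role, genes under the filter, and up to 4 genes per list from those with the smallest p. Others are named by value. MRPS7, MRM1 and TUFM are described in full outside this rule. The genes, lists and rules were chosen with earlier results of these data known. Coding length and exon overlap came from GENCODE v29, and motif matches from RefSeq promoters, with the first listed start per symbol.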

Additional observations from a re-analysis of the deposited data

How the results depend on the processing

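Of the 29 called mitoribosomal genes, 15 were called in each of the 15 refitted alternatives, among them MRPS6, MRPL21, MRPL1, MRPS10 and DAP3, and none changed sign in any. With limma on log2(FPKM + 1) or log2(FPKM + 0.1), 4 MRPS genes were higher in place of 8, and 4 assembly and translation factors in place of 7. Both limma fits, which used FPKM without composition scaling, gave 13 higher and 10 lower mitoribosomal genes in place of 21 and 8. With a filter at a mean of 5 FPKM, 9 factors were lower in place of 14. That filter left 7743 genes tested in place of 14254. MTG1, MRM1, MTERF4, TFB1M, METTL15, TACO1 and METAP1D, all among the 14, had means under 5 FPKM and were not tested there. The 9 and the 14 are therefore counts over different sets of genes. Upper-quartile scaling gave 24 higher and 6 lower mitoribosomal genes, and no composition scaling 16 and 9. All tested genes moved too. Of all called genes, 41.3% were higher in each limma fit, 41.2% with no composition scaling and 53.3% with upper-quartile scaling. In the main fit as many genes were called higher as lower. The median log2 fold change over all tested genes was -0.035 and -0.041 with limma at a pseudocount of 1 and 0.1. It was -0.042 with no composition scaling, against -0.003 in the main fit. Apart from the genes removed by the filter, the causes of these differences were not tested.

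Leaving out 1 library at a time gave 9 to 13 higher and 2 to 5 lower MRPL genes, 5 to 9 higher and 2 to 3 lower MRPS genes, and 5 to 8 higher and 8 to 13 lower factors. The number called over all 14254 tested genes moved as well. It was 5157 without EV replicate 1, the fewest, and 6270 without EV replicate 3, the most, against 6184 in the main fit. Of the called genes, 49.8% to 50.7% were higher in these fits. The lowest counts came without TEFM replicate 2 for lower MRPL genes (2, and 3 without EV replicate 1) and without TEFM replicate 3 for higher MRPS genes (5) and lower factors (8, and 9 without EV replicate 2). Calls near the threshold (MRPL32, MRPL33, MRPL44, MRPL57, MRPL58, MRPS27, MRPS33, MRPS34, MRPS36) were lost in several of these fits.

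The log2 fold change of some uncalled genes near 0 changed sign. MRPL11 gave -0.011 and -0.010 with limma at a pseudocount of 0.1 and 1, -0.0097 with no composition scaling and -0.019 to 0.062 without 1 library. MRPL45 gave -0.027 with both limma fits and with no composition scaling, -0.0014 at a mean of 5 FPKM and -0.012 to 0.036 without 1 library. MRPS18B gave 0.0081 with upper-quartile scaling and -0.039 to 0.028 without 1 library. Ranges without 1 library also crossed 0 for MRPL37 (-0.0049 to 0.082), MRPS22 (-0.165 to 0.00036), MRPS26 (-0.086 to 0.025) and MRPS30 (-0.019 to 0.095).

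No pairing by replicate number was seen: deviations of same-numbered libraries correlated at -0.09, 0.06 and -0.07, against -0.09 to 0.15 for other pairs. Not every library correlated best with its own number. So few values cannot show whether the cultures were set up in numbered sets. With the replicate block, 13 MRPL genes were higher and 5 lower, 8 MRPS genes higher and 3 lower, and 7 factors higher and 13 lower. Over all tested genes the block fit called 5935, against 6184 in the main fit. With 3 libraries per group the median standard error was 0.07 on the log2 scale, and a gene not called is not shown to be equal between the groups.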
